A study of Mus musculus with 6 samples.

Results

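Genes that release calcium from the endoplasmic reticulum (ER) and refill it were followed on arrays of mouse pancreatic islets. The set was defined by gene symbol: the IP3 receptor genes Itpr1, Itpr2 and Itpr3, the ryanodine receptor genes Ryr1, Ryr2 and Ryr3, the SERCA pump genes Atp2a2 and Atp2a3, and the store-operated entry genes Stim1 and Orai1. Of these 10 genes, 9 were named by the platform annotation, through 26 probe sets, out of 18193 named genes in all. Itpr1 had no probe set named for it and was not analysed here. No filter on low values was applied, so all 26 probe sets are accounted for.

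The 3 arrays labelled knockout came from Pdx1Cre;PPARbetafl/fl mice, in which floxed Ppar-beta (Ppard) alleles are combined with Cre recombinase under the Pdx1 promoter. The 3 control arrays came from PPARbetafl/fl littermates, which carry the floxed alleles without Cre. All mice were 8 weeks old and of a mixed SV 129/C57BL/6 background, and each array was a different animal. Pdx1 is active throughout the developing pancreas, so a deletion made with it would not be limited to beta cells, and 0 arrays came from mice with Cre and unfloxed Ppard, so deletion and Cre cannot be told apart. The labels call the material beta-cells, whereas the protocol describes whole islets obtained by collagenase digestion and a Histopaque gradient.

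The ER is the main releasable calcium store of a secretory cell. IP3 receptors open when phospholipase C makes inositol trisphosphate, and ryanodine receptors open when cytosolic calcium rises near them. SERCA pumps use ATP to return calcium to the ER lumen, and when the lumen empties STIM1 senses the loss and opens the plasma membrane channel ORAI1. In beta cells this store shapes the calcium oscillations that drive insulin release and supplies the calcium that folding enzymes need. In acinar cells of the exocrine pancreas, IP3 receptors of types 2 and 3 drive the calcium signals of enzyme secretion.

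The clearest difference among the 9 genes was a lower Itpr3 signal on the arrays labelled knockout, while the ryanodine receptor, Orai1 and brightest Atp2a2 probe sets differed by less than their standard errors. Over the 26 probe sets, 19 had a lower mean on the arrays labelled knockout and 7 a higher one, and 53.3% of all 45037 probe sets tested had a lower mean. Probe sets of 1 gene are not separate genes, and Itpr2 and Atp2a2 each gave 6 of the 26. By the brightest probe set, 6 of the 9 genes had a lower mean and 3 a higher one. The median difference, labelled knockout minus control, was -0.15 on the log2 scale over the 26 and -0.017 over all probe sets. Without control 1 it was -0.067 over the 26, with 16 lower, and with the acinar marker mean as a covariate it was -0.265. In 3 of 26 the groups did not overlap, each time with the arrays labelled knockout lower, a pattern that 8.85% of all probe sets showed, while 10.1% separated with the arrays labelled knockout higher. In a limma fit across all probe sets, 1 of 26 passed a Benjamini-Hochberg adjusted p of 0.05, compared with 0.897% of all probe sets in either direction, 0.713% as higher and 0.184% as lower. The genes were proposed with results of this same comparison in view, so nothing is read from these counts, and the differences of the 9 genes are given as descriptions, each with its moderated standard error and with no p-value. Probe sets differ in brightness for reasons of their own sequence, so levels are set side by side between arrays and not between genes.

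**Figure D1:**
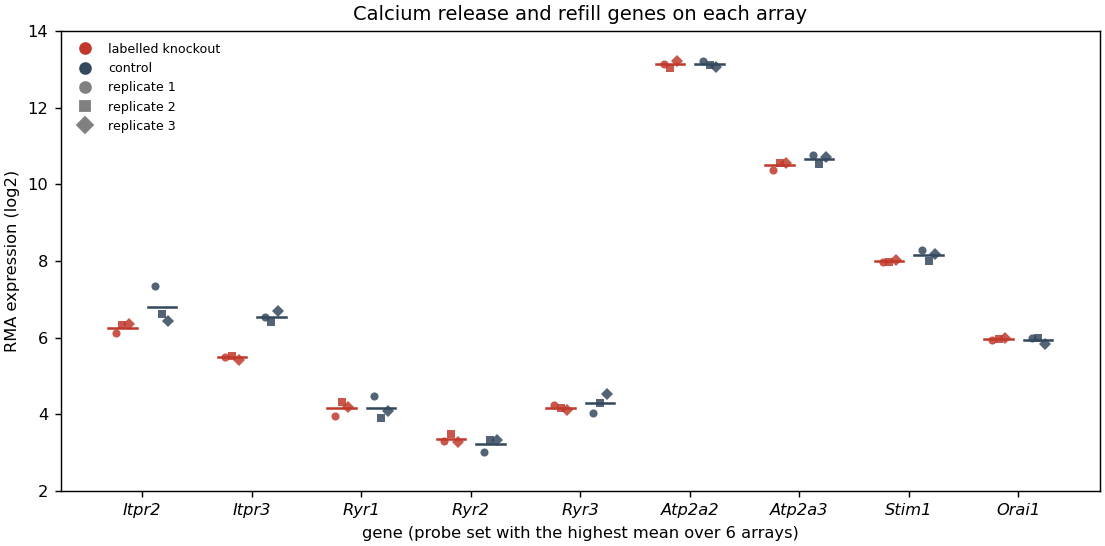
RMA expression (log2, vertical axis) of the probe set with the highest mean of each of the 9 genes (horizontal axis), on the 3 arrays labelled knockout (red, left of each pair) and the 3 control arrays (dark, right), with symbols for replicate number and a line at the group mean. Itpr3 shows separate groups, at 5.43 to 5.52 against 6.40 to 6.71, and Itpr2 shows a single high control array.

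Several measures of the whole data set bear on these genes. Array medians lay between 5.39 and 5.49. Ppard itself had a mean of 7.97 ± 0.25 on the arrays labelled knockout and 7.48 ± 0.32 on control arrays (SD, n = 3 each), a difference of 0.49 ± 0.20 (SE) that did not pass limma's test (adjusted p = 0.377), and a dimmer Ppard probe set gave 0.35 ± 0.11 (adjusted p = 0.255). The labels do not name the deleted exon, and a probe set outside it checks nothing, so the genotype is known from the labels alone. In 8 of 12 beta cell markers the mean over arrays labelled knockout was lower than that over controls, with list means of 11.18 to 11.39 on the arrays labelled knockout and 11.31 to 11.66 on control arrays. The brightest of them, Iapp, which encodes the granule peptide amylin, stood at 14.10 ± 0.02 on the arrays labelled knockout and 14.09 ± 0.03 on control arrays, among the very brightest signals, where a difference can be understated. Acinar markers had a list mean of 8.27, 5.55 and 5.59 on the arrays labelled knockout 1 to 3, against 6.58, 10.63 and 10.83 on controls 1 to 3. These groups overlapped (difference -2.87, two-sided exact permutation p = 0.2, where 3 against 3 cannot go below 0.1), and 21 of 23 acinar markers had a lower mean on the arrays labelled knockout. Alpha cell markers had lower means in 6 of 6 genes, with list means of 8.17 to 8.20 on the arrays labelled knockout and 8.77 to 8.96 on control arrays. Delta and PP cell markers had lower means in 6 of 6 genes, with list means of 10.51 to 10.59 and 11.14 to 11.32. In whole islet RNA, fewer cells of a type and less RNA per cell cannot be told apart.

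Itpr3 encodes the type 3 IP3 receptor and was measured by a single probe set, 1417297_at. Its log2 values were 5.50, 5.52 and 5.43 on the arrays labelled knockout, against 6.53, 6.40 and 6.71 on the control arrays. On the arrays labelled knockout they lay close to the array medians of 5.39 to 5.49, and dim signals may understate a difference. Every array labelled knockout lay below every control array, and the gap between the groups was wider than the spread within either. The means were 5.48 ± 0.05 and 6.54 ± 0.15 (SD, n = 3 each), a difference of -1.06 ± 0.12 (SE), which is 2.09-fold lower on the arrays labelled knockout. Of the 26 probe sets, only this one passed the threshold of the fit over the whole table, which 0.184% of all probe sets passed as lower. The genes were proposed with this comparison in view, so nothing is read from the pass. When single arrays were left out, Itpr3 stayed past that threshold in 2 of 6 fits. It fell short without control 3 or without any 1 of the arrays labelled knockout. The difference itself was -1.13 to -0.98 in those fits.

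Itpr3 was lower on the same arrays on which alpha cell and delta and PP cell markers were lower and immune markers higher (list means of 6.72 to 7.03 on the arrays labelled knockout and 6.27 to 6.54 on control arrays). The part of these cells in the result was not tested. The glucagon gene Gcg, the brightest alpha marker, stood at 13.79 ± 0.04 on the arrays labelled knockout and 13.95 ± 0.02 on control arrays, and the somatostatin gene Sst, the brightest delta marker, at 12.95 ± 0.17 on the arrays labelled knockout and 13.45 ± 0.08 on control arrays. In both genes every array labelled knockout lay below every control, by -0.16 ± 0.096 for Gcg and -0.51 ± 0.12 for Sst (SE; limma adjusted p = 0.539 and 0.152). Very bright signals on such arrays can understate a difference, so these values give no measure of the share of alpha or delta cells. Control 1, with an acinar list mean of 6.58, had an Itpr3 value of 6.53, while knockout 1, with an acinar list mean of 8.27, had 5.50. With the acinar mean as a covariate the Itpr3 difference was -1.04 ± 0.17 (SE), and against control 1 alone it was -1.04 ± 0.14. Neither fit kept it past the threshold, and beyond these fits the part of acinar RNA was not tested.

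**Figure D2:**
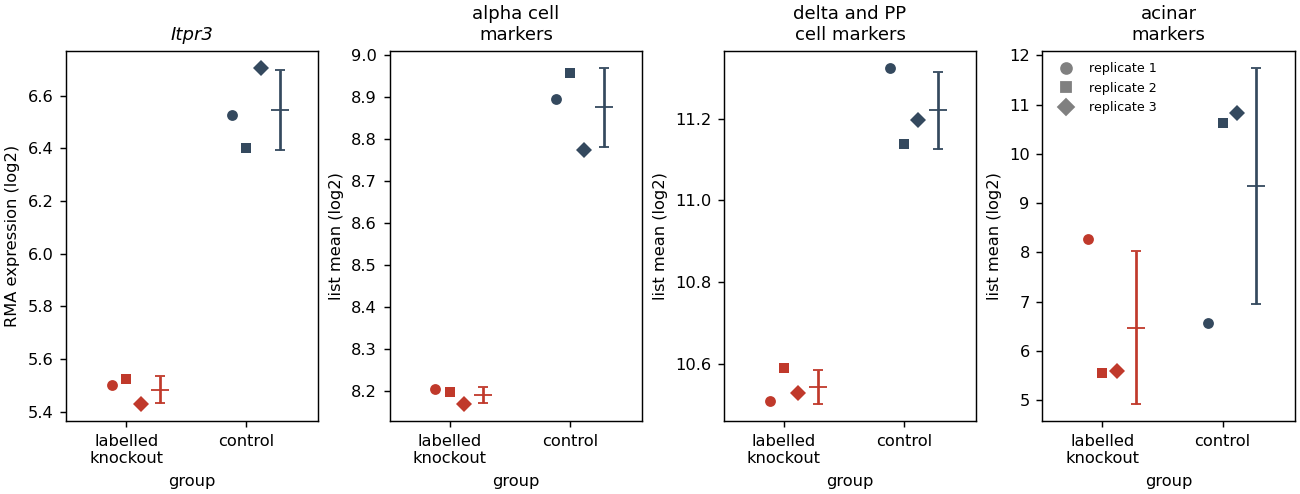
Values per array (log2, vertical axes, each panel on its own scale that does not start at 0) of Itpr3 and of the mean of 6 alpha, 6 delta and PP, and 23 acinar markers, for the arrays labelled knockout (red, left) and controls (dark, right), with bars for the mean ± SD of 3 arrays. The first 3 panels have separate groups, and in the acinar panel control 1 lies below knockout 1.

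The promoters of Itpr3 and Itpr2 are shown because these IP3 receptor genes held the largest differences of the set on their brightest probe sets. Both runs are the 250 bases before the RefSeq transcription start on build GRCm38.p6, read 5′ to 3′ on the gene's strand, chr17:27057054-27057303 on the plus strand for Itpr3 and chr6:146502224-146502473 on the minus strand for Itpr2. Capitals mark GC boxes (GGGCGG, or CCGCCC on the other strand).

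Itpr3: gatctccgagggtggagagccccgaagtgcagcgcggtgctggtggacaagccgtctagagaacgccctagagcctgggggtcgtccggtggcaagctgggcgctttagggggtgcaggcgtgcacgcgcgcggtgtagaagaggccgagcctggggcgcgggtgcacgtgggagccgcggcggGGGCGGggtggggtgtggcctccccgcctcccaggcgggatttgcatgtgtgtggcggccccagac

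Itpr2: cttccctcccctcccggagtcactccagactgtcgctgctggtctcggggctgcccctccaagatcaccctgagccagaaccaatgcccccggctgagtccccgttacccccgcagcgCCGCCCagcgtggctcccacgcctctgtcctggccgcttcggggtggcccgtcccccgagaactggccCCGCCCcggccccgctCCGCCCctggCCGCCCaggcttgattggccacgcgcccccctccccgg

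The Itpr3 window held 1 GC box and the Itpr2 window 4, counted on both strands with overlaps allowed. Of the 9 genes, 7 had a promoter in the RefSeq-derived table (Atp2a2 and Ryr3 did not). GC boxes stood in 6 of these 7 windows and in 32.7% of 32851 mouse promoter windows of the same length. CCAAT boxes (CCAAT or ATTGG) stood in 3 of 7, 2 of them in Itpr2, and in 33.8% of all windows. The half-site that nuclear receptors bind (AGGTCA or TGACCT) stood in 1 of 7, that of Ryr2, and in 14% of all windows. The direct repeat bound by PPAR with its RXR partner (AGGTCANAGGTCA, either strand) stood in 0 of 7 and in 0.0335% of all windows, and the ER stress element (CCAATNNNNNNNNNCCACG, either strand) in 0 of 7 and 0.113%. A match here describes letters in a window and is no measured binding site.

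Itpr2 encodes the type 2 IP3 receptor, and its 6 probe sets did not behave alike. The brightest, 1424834_s_at, had log2 values of 6.12, 6.32 and 6.35 on the arrays labelled knockout, against 7.35, 6.60 and 6.43 on controls 1 to 3. Its groups did not overlap, but control 1 stood well above the other controls and control 3 lay close to knockout 3.
Probe set 1427287_s_at read 5.80, 5.97 and 5.68 on the arrays labelled knockout, against 6.66, 6.23 and 5.97, so that control 3 and knockout 2 met. Probe set 1424833_at read 4.81, 3.995 and 4.57, against 6.25, 4.65 and 4.402, with control 1 again far above the rest and the other 5 arrays mixed.

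The differences of these 3 probe sets were -0.53 ± 0.24, -0.47 ± 0.19 and -0.64 ± 0.49 (SE), and all of them rested in large part on control 1. Without control 1 they were -0.26, -0.29 and -0.065. Control 1 was also the control with the least acinar RNA by its markers. With the acinar mean as a covariate the differences were -1.01, -0.76 and -1.32, and against control 1 alone they were -1.09, -0.85 and -1.79, which is more than 1.5 times their size over all arrays. The part of acinar RNA in these values was not tested beyond these fits.

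The remaining Itpr2 probe sets were dim. Probe set 1427693_at differed by 0.039 ± 0.098 (SE) and kept to between 5.17 and 5.31 on all 6 arrays, 1444418_at differed by -0.29 ± 0.27, and 1421678_at by -0.017 ± 0.15. The 1444418_at difference was -0.069 without control 1 and -0.73 against control 1 alone. All 3 lay below the median of every array, and dim signals may understate a difference. Probe set 1424833_at was also dim, with a mean of 4.78. It lay below the lowest array median, 5.39, on every array but control 1. The ending _s_at marks a probe set whose probes match more than 1 transcript, so the brighter pair of Itpr2 probe sets may also read related transcripts.

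By the distance between values centred on each gene's own mean, the genes nearest to Itpr3 over the 6 arrays were Mansc1 (Euclidean distance 0.24), Slc6a9, which encodes a glycine transporter (0.29), and Ifitm2, an interferon-induced membrane protein gene (0.29). They differed by -0.957, -0.934 and -0.996 between the groups. Those nearest to the brightest Itpr2 probe set were Tcf3, which encodes the E-box factor E2A (0.20), Fam90a1a (0.22) and Creb3l4 (0.25), and each of these also had its highest value on control 1. With 6 arrays and 18193 genes, close neighbours arise readily, and the distance is given as a description.

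Ryanodine receptor genes gave dim signals and small differences. RyR1 is the calcium release channel of skeletal muscle, RyR2 that of heart and also of neurons and beta cells, and RyR3 is spread thinly over many tissues. All 7 probe sets lay below the median of every array, with values between 2.31 and 4.52 over the 6 arrays. Differences ran from -0.12 ± 0.14 (SE) for the brightest Ryr3 probe set to 0.13 ± 0.13 for the brighter Ryr2 probe set, 3 of them higher and 4 lower on the arrays labelled knockout, and in none of the 7 did the groups separate.

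The brighter Ryr2 probe set, 1421126_at, read 3.31, 3.48 and 3.26 on the arrays labelled knockout, against 3.01, 3.33 and 3.33 on control arrays. The groups overlapped, and knockouts 1 and 3 lay below controls 2 and 3. For Ryr1, probe set 1427306_at read 3.95, 4.32 and 4.18, against 4.48, 3.91 and 4.09, and the lowest of the 6 was a control. The brightest Ryr3 probe set, 1427427_at, read 4.23, 4.17 and 4.10, against 4.04, 4.29 and 4.52, with control 1 as the lowest array. A dim probe set does not show that a channel is absent, since detection calls were not used here, and a change in these genes smaller than the spread would not be seen. Striated and smooth muscle markers, which would accompany muscle RNA, had list means of 4.48 to 4.62 on the arrays labelled knockout and 4.55 to 4.59 on control arrays.

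**Figure D3:**
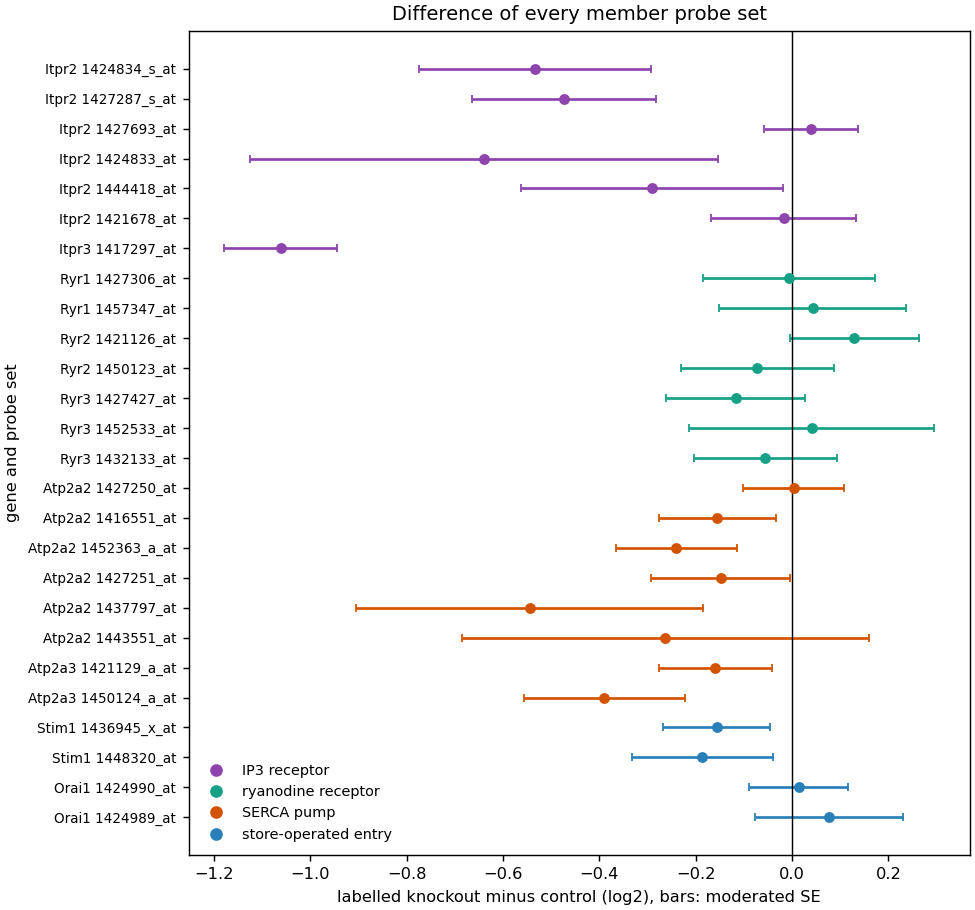
Labelled knockout minus control difference (log2, horizontal axis) of each of the 26 probe sets (vertical axis), with bars for limma's moderated SE and colours for the role of the gene. Itpr3 lies farthest from 0 at -1.06, the 7 ryanodine receptor probe sets cluster around 0, and the SERCA probe sets lie between -0.55 and 0.0033.

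The SERCA genes differed little on their brightest probe sets. Atp2a2 encodes SERCA2, whose 2b form is the housekeeping pump of most cells. Its brightest probe set, 1427250_at, read 13.15, 13.05 and 13.22 on the arrays labelled knockout, against 13.21, 13.12 and 13.07 on control arrays. The groups were interleaved, with a difference of 0.0033 ± 0.11 (SE), although at values this high the arrays approach saturation and differences shrink. The next brightest, 1416551_at and 1452363_a_at, differed by -0.16 ± 0.12 and -0.24 ± 0.13. In 1452363_a_at the groups did not overlap, at 11.08, 11.01 and 11.20 against 11.53, 11.22 and 11.27, but knockout 3 and control 2 were nearly equal. Probe set 1427251_at differed by -0.15 ± 0.14. Without control 1 the differences of these 3 probe sets were -0.079, -0.15 and -0.058.

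A further pair of Atp2a2 probe sets varied among the control arrays far more than the brighter ones did. Probe set 1437797_at read 7.24, 7.66 and 7.13 on the arrays labelled knockout, against 7.15, 8.63 and 7.89 on controls 1 to 3. Probe set 1443551_at read 6.05, 6.30 and 6.12, against 5.40, 7.22 and 6.64. In both, controls 2 and 3 stood above all arrays labelled knockout and control 1 stood at or near the bottom. Controls 2 and 3 were the arrays with the most acinar RNA by its markers. Knockout 1, the highest of its group in acinar markers, read 7.24 and 6.05 on this pair. The part of acinar RNA in these values was not tested beyond the fits that follow.

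Their differences of -0.55 ± 0.36 and -0.26 ± 0.42 (SE) therefore depended on which controls were used. Against control 1 alone they were 0.20 and 0.76, the opposite direction, and without control 1 they were -0.92 and -0.77. With the acinar mean as a covariate they were -0.066 and 0.42. The 3 brightest Atp2a2 probe sets gave differences between -0.43 and 0.057 over all alternatives, so the 6 probe sets did not move together.

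**Figure D4:**
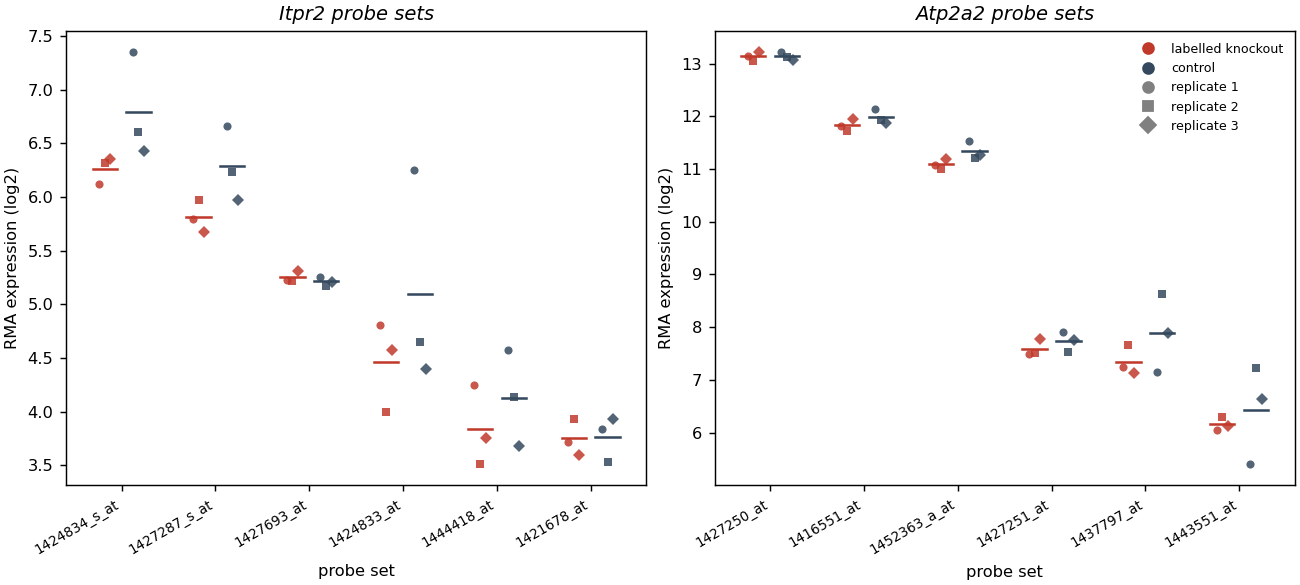
RMA expression (log2, vertical axes that do not start at 0) of the 6 Itpr2 probe sets (left panel) and the 6 Atp2a2 probe sets (right panel), with arrays labelled knockout in red to the left of controls and a line at each group mean. Control 1 (circle) is the highest control in 1424834_s_at, 1427287_s_at, 1424833_at and 1444418_at of Itpr2, and the lowest control in 1437797_at and 1443551_at of Atp2a2.

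Atp2a3 encodes SERCA3, a pump of lower calcium affinity found in blood cells, some epithelia and beta cells. Probe set 1421129_a_at read 10.39, 10.57 and 10.57 on the arrays labelled knockout, against 10.76, 10.53 and 10.72 on control arrays. Control 2 lay below 2 of the arrays labelled knockout. Probe set 1450124_a_at read 8.51, 8.64 and 8.39, against 9.06, 8.57 and 9.08, with control 2 again among the arrays labelled knockout. The differences were -0.16 ± 0.12 and -0.39 ± 0.17 (SE), both lower. Both kept that direction in all 13 alternative fits, some of which cannot change a difference. The ending _a_at marks probes shared by transcript variants of 1 gene.

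Stim1, the luminal calcium sensor, was slightly lower on the arrays labelled knockout and Orai1, the channel it opens, was level. The brighter Stim1 probe set, 1436945_x_at, read 7.98, 7.98 and 8.03 on the arrays labelled knockout, against 8.28, 8.01 and 8.17. The groups met at control 2, and the difference was -0.16 ± 0.11 (SE). The other, 1448320_at, read 6.87, 6.73 and 6.55, against 7.13, 6.82 and 6.76, a difference of -0.19 ± 0.15, with knockout 1 above 2 of the controls. Both differences kept their direction in all 13 alternative fits, some of which cannot change a difference. Without control 1 they were -0.094 and -0.071, and against control 1 alone -0.28 and -0.42. The ending _x_at marks probes with close matches in other sequences.

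The brighter Orai1 probe set, 1424990_at, read 5.92, 5.96 and 6.00 on the arrays labelled knockout, against 6.00, 6.00 and 5.84 on control arrays. The 6 values spanned 0.16, and the difference was 0.014 ± 0.10 (SE). Its other probe set, 1424989_at, differed by 0.077 ± 0.15. Neither difference exceeded its standard error, which leaves room for a small change in either direction.

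Partner genes that are not among the 10 were taken from 6 lists of calcium release, pumping, entry, luminal storage, mitochondrial uptake and export, 91 entries in all, of which 81 were named by a single-symbol probe set. These were tested in the same fit, with the brightest probe set standing for a gene. Of the 81 genes, 0 rose, 1 fell and 80 did not pass, next to 1.10% of all 18193 genes called, 0.852% as higher and 0.247% as lower. Means were higher on the arrays labelled knockout in 44 genes and lower in 37.

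The gene that fell was Rcn1, which encodes reticulocalbin 1, a calcium-binding protein of the ER lumen. It read 8.34, 8.32 and 8.13 on the arrays labelled knockout, against 9.22, 9.06 and 9.10 on control arrays. The groups did not overlap, and the difference was -0.86 ± 0.11 (SE, adjusted p = 0.0243 by limma with Benjamini-Hochberg adjustment). With single arrays left out the call held in 1 of 6 fits, the one without control 1, and in the other 5 the difference was -0.90 to -0.79 with an adjusted p up to 0.107. A second, very dim Rcn1 probe set differed by -0.13 (adjusted p = 0.77).

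Among the 15 genes of the list named luminal calcium binders, the median difference was 0.075, with 11 higher and 4 lower. The list name is broad, and not every gene in it encodes a calcium binder of the ER lumen. Pdia4, an ER disulfide isomerase, averaged 10.72 ± 0.14 on the arrays labelled knockout and 10.18 ± 0.03 on control arrays (SD, n = 3 each), a difference of 0.54 ± 0.11 (adjusted p = 0.104). Its dimmer probe set differed by 0.35. The median over the brightest probe set of all genes was 0.0020, and genes of the list separated in both directions. In 6 of 15 every array labelled knockout lay above every control, which 12.1% of all genes showed, and in 3 of 15 every one lay below, which 9.06% showed. Together 9 of 15 separated, next to 21.2% of all genes. The list was chosen with earlier results of these data known, so nothing is read from these counts. The 6 were Pdia4, Nucb2, Pdia6, Calu and the chaperone genes Hsp90b1 and Hspa5, with differences of 0.19 to 0.56, and the 3 were Rcn1, Selenon and Rcn3, all but Pdia4 and Rcn1 named after their values were seen. Of the 9, only Rcn1 passed the threshold in the limma fit over all probe sets.

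Of the 24 measured release channel partners, 12 were higher and 12 lower, with a median difference of 0.0026 and 0 past the threshold. Erp44, a luminal thiol protein that binds an IP3 receptor, differed by 0.42 ± 0.12 (adjusted p = 0.207), and Itpripl2 by 0.42 ± 0.15 (adjusted p = 0.315). Among 8 genes of SERCA isoforms and regulators, 4 were higher and 4 lower, 0 passed, and the median was 0.035. Calr, the luminal chaperone and calcium buffer calreticulin, differed by 0.34 ± 0.11 (adjusted p = 0.285), and Mrln, whose micropeptide inhibits SERCA in muscle, by -0.58 ± 0.20 (adjusted p = 0.306). The 3 Calr probe sets ranged from 0.34 to 0.52.

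The 14 measured partners of store-operated entry had a median difference of 0.059, with 10 higher, 4 lower and 0 past the threshold. Rasgrf2, a calcium-regulated exchange factor for Ras and Rac, averaged 6.32 ± 0.12 on the arrays labelled knockout and 7.20 ± 0.35 on control arrays (difference -0.87 ± 0.19, adjusted p = 0.109). This was the brightest of 3 Rasgrf2 probe sets, which ranged from -0.87 to -0.32. Esyt1, which tethers the ER to the plasma membrane, differed by 0.48 ± 0.12 (adjusted p = 0.152), and by 0.25 on its dimmer probe set. Homer2, a scaffold that links receptors to ER channels, was named after its values were seen. It read 3.14, 3.06 and 3.40 on the arrays labelled knockout, against 3.25, 5.89 and 5.44 on controls 1 to 3, so it was high only on the control arrays that were also high in acinar markers (difference -1.66 ± 0.63, adjusted p = 0.341). These values are from the brightest of 3 Homer2 probe sets, whose differences ranged from -1.66 to -0.15. Stim2 and Orai3, the close relatives of Stim1 and Orai1, differed by 0.012 and 0.011 and were also chosen after their values were seen. Stim2 had 2 probe sets, with differences from 0.012 to 0.33, and the brighter gave the lower.

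For mitochondrial uptake 5 of 11 genes were higher and 6 lower, 0 passed, and the median was -0.0096. Mcu, the pore of the mitochondrial uniporter, differed by 0.50 ± 0.16 (adjusted p = 0.258) and its gatekeeper gene Micu2 by 0.16 ± 0.10 (adjusted p = 0.552). The 9 genes of export across the plasma membrane and into the Golgi had the lowest median of the 6 lists, -0.28, with 2 higher, 7 lower and 0 past the threshold. Atp2b4, a plasma membrane calcium pump, differed by -0.76 ± 0.22 (adjusted p = 0.214) at a very dim level of 2.55 ± 0.25 on the arrays labelled knockout and 3.31 ± 0.37 on control arrays. Slc8a1, the sodium-calcium exchanger NCX1, differed by -0.54 ± 0.17 (adjusted p = 0.252) on the brightest of 4 probe sets, which ranged from -0.54 to 0.033.

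**Figure D5:**
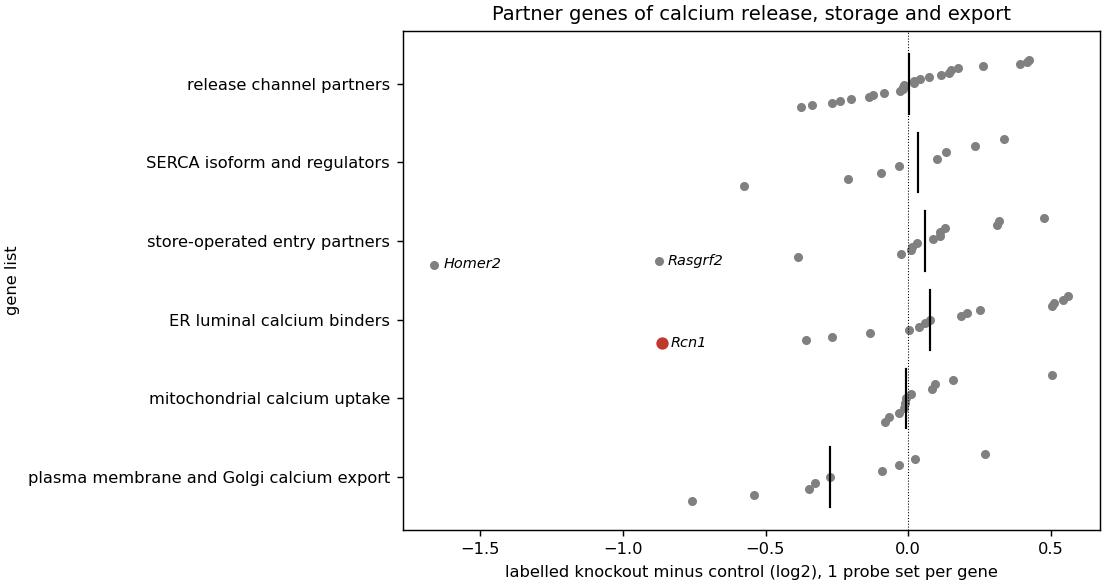
Labelled knockout minus control difference (log2, horizontal axis) of 81 partner genes in 6 lists (vertical axis), 1 point per gene, with a black line at each list's median and the single gene past the threshold, Rcn1, in red. Genes beyond 0.8 in size are named, and the medians lie between -0.28 and 0.075.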

How the data were processed

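RNA of 6 islet preparations was hybridised to 1-colour Affymetrix arrays after a single round of amplification to biotin-labelled RNA, per the labels' protocols. The authors deposited 1 log2 value for each probe set and array. They made it with RMA (background correction, quantile normalization and probe set summary), per the submitters' processing notes. The table held 45101 probe sets, and 64 manufacturer controls were left out. Platform annotation gave 34945 probe sets a single symbol, 932 several and 9160 none, and 34741 were matched by gene identifier to RefSeq (GRCm38.p6), which changed 0 symbols. The probe set with the highest mean over 6 arrays stood for a gene.

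Groups came from sample titles. Limma 3.58.1 in R 4.3.3 (lmFit, eBayes, group as the only term, two-sided) was run on all 45037 probe sets, and the fit was tested on simulated data. Adjusted p under 0.05 counted as past the threshold. RMA values carry no detection call, scan dates were not used here, and 3 arrays a group limit the precision. Alternatives were each array left out, a replicate block, median centring, a repeated quantile normalization, a filter at the 40th percentile of mean signal, an acinar covariate, control 1 as the only control, limma-trend, and other probe set rules.

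The genes, the 6 partner lists, the 8 marker lists (acinar, beta, alpha, delta and PP, immune, endothelial, muscle, neuron and Schwann) and the alternatives were chosen with earlier results of these data known. Named partner genes were those past the threshold and, in each list, the 2 genes of smallest p, and for markers the brightest. The pattern neighbours were the 3 genes nearest in Euclidean distance to each of the 2 set genes with the largest range.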

Additional observations from a re-analysis of the deposited data

How the results depend on the processing

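Itpr3 kept its direction in all 13 alternatives (-1.13 to -0.98) and stayed past the threshold in 6 of them, and Rcn1 kept its direction in 13 (-0.96 to -0.79) and stayed past it in 5. The replicate block, the percentile filter and limma-trend cannot change a difference, so a direction kept in them adds nothing, for any gene. Leaving out 1 array moved the count of called probe sets from 404 to between 152 and 783, the count among the 26 probe sets of the set (1 over all arrays) to between 0 and 1, that of partner genes (1 over all arrays) to between 0 and 2, and the number of the 9 genes with a higher mean on the arrays labelled knockout (3 over all arrays) to between 1 and 4. The second partner gene, called without control 1, was Homer2 (-2.47). With the replicate block the counts were 246 probe sets, 0 of the set and 0 partner genes, with the acinar covariate 134, 0 and 0, and against control 1 alone 54, 0 and 0, where that lone array is assumed to vary like the others. Limma-trend called 887 probe sets and 4 partner genes, Rcn1, Esyt1, Pdia4 and Nucb2. Without controls 2 and 3 the acinar difference was -0.11. Some of these fits held fewer arrays, and the cause of the shifts was not tested. The sample titles give replicate numbers and no pairing. Deviations of same-numbered arrays from their group means correlated at -0.054, 0.14 and 0.0045, and 2 of 6 arrays correlated best with their own number. With 3 arrays a group, these values cannot show whether same-numbered arrays were paired. Of the 26 differences, 9 moved by more than the spread between replicates with the acinar covariate and 17 against control 1 alone, and 1 each under median centring and repeated quantile normalization. The filter left 17 of the 26. Dim probe sets, all 7 of the ryanodine receptors among them, limit what a small difference could show.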

Other observations

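Other cell markers gave these values. Of 12 immune markers 1 rose, 0 fell and 11 did not pass. List means were 6.72 to 7.03 on the arrays labelled knockout and 6.27 to 6.54 on control arrays. The gene that rose was Laptm5 (1.34 ± 0.11, SE, adjusted p = 0.00425 by limma) on the brightest of 5 probe sets. These 5 ranged from -0.041 to 1.34, and 1 of them passed. Of 8 endothelial markers 0 passed, with list means of 7.93 to 8.09 and 7.37 to 8.13, and Kdr, the brightest, differed by 0.027 ± 0.19. Of 7 neuron and Schwann markers 0 passed on their brightest probe sets, with list means of 5.33 to 5.78 and 5.48 to 5.75. Tubb3, the brightest, differed by -0.47 ± 0.17 (adjusted p = 0.313). Ngfr, named after its values were seen, had 3 probe sets with differences from -0.064 to 1.14, and 1 of them passed. The brightest Ngfr probe set differed by 0.62 (adjusted p = 0.542). Of 13 muscle markers 0 passed, and Mylpf, the brightest, differed by -0.035 ± 0.11. Of 12 beta cell markers 1 fell, the granule zinc transporter gene Slc30a8 (-0.82 ± 0.12, adjusted p = 0.0394, named after its values were seen), and 11 did not pass. The brightest acinar marker, Ctrb1, differed by -2.54 ± 1.16 (adjusted p = 0.422). Of the alpha markers 1 of 6 fell, the amino acid transporter gene Slc38a5 (-1.38 ± 0.15, adjusted p = 0.0122), and of the delta and PP markers 2 of 6 fell, Ghsr (-1.17 ± 0.12, adjusted p = 0.0097) and Rbp4 (-0.73 ± 0.10, adjusted p = 0.0265). These 3 were also named after their values were seen. Across all probe sets tested 0.713% were called as higher and 0.184% as lower.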
